A study of Mus musculus with 2 samples.

Results

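Cofactors of the androgen receptor were followed in the ventral prostate of mice labelled as lacking U19/Eaf2 and of wild-type mice. The members were 6 genes, namely the transcription factors Foxa1 and Gata2, the p160 coactivators Ncoa1, Ncoa2 and Ncoa3, and the corepressor Ncor1. Every probe set listed with exactly 1 gene symbol, that symbol being a member's, was taken, which gave 12 of the 45101 probe sets and 5 of the 6 genes. Ncor1 was listed with no such probe set and has no value here, and the receptor's own transcript was not analysed here.

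U19/Eaf2 binds transcription elongation factors of the ELL family, and its loss is studied as a step towards prostate tumours. The array labelled knockout carried RNA of the genotype U19/Eaf2 -/-, and the other carried RNA of the genotype U19/Eaf2 +/+. The mice were C57BL/6J males, both groups were 3 months old, and no treatment is named in the labels. Each tissue was ventral prostate, and each group held 1 array, so nothing below has a replicate or a test. Prostates are named in the plural, without a number of animals, so a pool cannot be told from a single gland, and the deleted part of the gene is not stated in the labels.

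The androgen receptor is a hormone-activated transcription factor that drives secretion and survival of the luminal cells of the prostate. Foxa1 is a pioneer factor of the forkhead family that opens chromatin at prostate enhancers, and Gata2, a zinc-finger factor, binds beside the receptor at many of the same enhancers. Once bound to DNA, the receptor recruits p160 coactivators, which bring in histone acetyltransferases and methyltransferases, whereas NCoR-type corepressors bring in histone deacetylases.

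The upstream regions of a pair of members are shown, that of Foxa1, since a forkhead word stands in it, and that of Ncoa1, the member with the lowest ratio on the array labelled knockout. Each is the 250 bases before a RefSeq start site in build GRCm38.p6, given 5′ to 3′ on the gene's strand, which is the minus strand for both. Capitals mark the forkhead word GTAAACA, searched on both strands together with the GATA word AGATAA and the androgen response half-site AGAACA. None of these words overlapped another in the regions shown.
Foxa1, chr12:57546112-57546361: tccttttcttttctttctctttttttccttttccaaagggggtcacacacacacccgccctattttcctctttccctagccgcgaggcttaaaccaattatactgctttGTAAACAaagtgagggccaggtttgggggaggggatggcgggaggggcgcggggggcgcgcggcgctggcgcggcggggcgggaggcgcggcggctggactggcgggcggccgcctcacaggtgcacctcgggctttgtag
Ncoa1, chr12:4477183-4477432: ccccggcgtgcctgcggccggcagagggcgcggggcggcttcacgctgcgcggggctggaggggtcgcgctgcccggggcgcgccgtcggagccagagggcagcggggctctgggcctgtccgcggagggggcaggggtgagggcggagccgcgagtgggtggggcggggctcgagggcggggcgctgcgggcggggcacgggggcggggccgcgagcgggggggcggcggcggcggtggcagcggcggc

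The Foxa1 region held 1 forkhead word, which 3.17% of 32851 such upstream regions held on either strand. All 250 bases of it lay inside the span annotated for the gene, as did 24 of the 250 bases of the Ncoa1 region, so these starts are not the outermost ones. The Ncoa1 region had a GC content of 85.6% and held none of the 3 words, while the Foxa1 region had a GC content of 62.0% and no GATA word or half-site. GATA words stood in 9.99% of all such regions and half-sites in 16.1%. Both Gata2 regions in the RefSeq table, on chromosome 6, held none of the 3 words either. The table matched 4 of the 6 members, the fourth being Ncor1 with 2 regions on chromosome 11. One of these, chr11:62438516-62438765, held 2 half-sites, the only ones in the members' regions, and the other held none of the words. A word found in a window describes its letters and shows no binding.

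Signals were linear, with a median of 154 on the array labelled knockout and 177 on the wild-type array. A floor of 166, the 50th percentile of pooled signals, stood in for a detection limit. On the array labelled knockout 48.4% of probe sets other than controls reached it, against 51.6% on the wild-type array. The only Eaf2 probe set read 702 on the array labelled knockout and 691 on the wild-type array, so the label could not be checked from it, and a probe set outside the deleted part checks nothing. The ratio of 3′ to 5′ Actb signal, a guide to RNA degradation, was 1.65 on the array labelled knockout and 1.25 on the wild-type array. The same ratio for Gapdh was 0.85 on the array labelled knockout and 0.71 on the wild-type array. Secretory markers were present on both arrays, 3 of the 5 with a probe set reading higher and 2 lower on the array labelled knockout. Their log2 ratios were 0.59 for Spink5, 0.53 for Tmprss2, 0.048 for Spink1, -0.37 for Msmb and -0.38 for Pbsn. The 2 other Tmprss2 probe sets that entered had -0.20 and 0.16. The 6 seminal vesicle markers with a probe set were all below the floor on both arrays.

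Markers of some other cell types differed between the arrays, and their part in any member's difference was not tested. Of 10 smooth muscle markers 9 read lower on the array labelled knockout, with a summed signal of 45502 there, against 59647 on the wild-type array, and a median log2 ratio of -0.54. Fibroblast and matrix markers were also lower in 9 of 10, summing to 22642 on the array labelled knockout and 27359 on the wild-type array, with a median of -0.32. Luminal epithelial markers summed to 55487 on the array labelled knockout and 52262 on the wild-type array, with 2 of 6 higher and a median of -0.033. Adipocyte markers summed to 3176 on the array labelled knockout and 1566 on the wild-type array, with 3 of the 5 that entered higher and a median of 0.62. Endothelial markers were higher in 3 and lower in 4 of 7, and macrophage markers lower in 5 of 8 with a median of -0.15. Urothelial markers were lower in 3 of 4, summing to 4804 on the array labelled knockout and 6703 on the wild-type array, with a median of -0.54 and with ratios from -2.27 to -2.03 in the other Upk1b probe sets. Both skeletal muscle markers that entered were lower, with a median of -0.41. Basal epithelial markers were higher in 2 of the 3 that entered, with a median of 0.036, and lymphocyte markers in 1 of 2. In whole tissue, fewer cells of a type and less RNA per cell cannot be told apart.

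No member probe set that reached the floor differed 2-fold between the arrays. A probe set entered when its higher signal reached the floor, which 10 of the 12 did, and lower signals were raised to the floor before the log2 ratio of knockout over wild-type signal was taken. Among all 24267 probe sets that entered, 1.82% differed at least 2-fold. Of the 10 member probe sets 4 read higher and 6 lower on the array labelled knockout, where 44.3% of all probe sets that entered were higher and 55.7% lower. Their median log2 ratio was -0.17, beside -0.050 over all probe sets that entered. At 1.5-fold or more, 1 was higher and 1 lower, where 4.73% and 7.88% of all probe sets were, 12.6% together. The spread between probe sets of the same gene serves as the yardstick, an SD of 0.357 in log2 ratio over 4497 genes that holds no variation between animals or dissections.

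**Figure D1:**
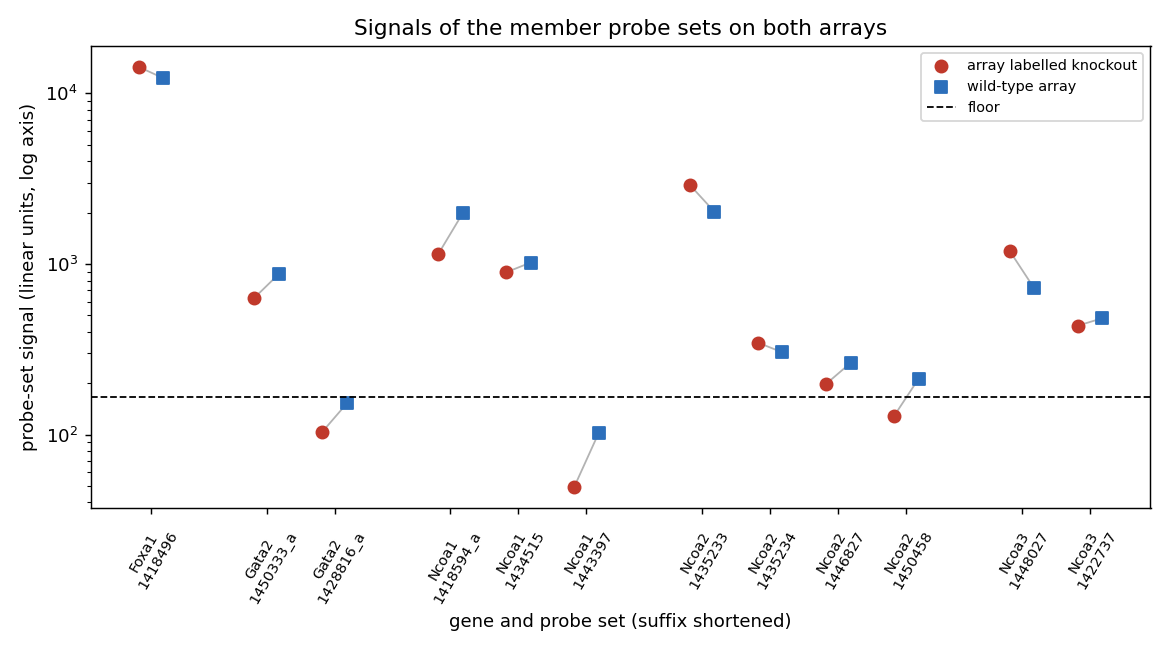
Signal of each of the 12 member probe sets (vertical axis, linear units on a log scale) on the array labelled knockout (circles) and the wild-type array (squares), 1 array each, with the floor of 166 as a dashed line. The probe sets 1428816_a_at of Gata2 and 1443397_at of Ncoa1 lie below the floor on both arrays, and 1450458_at of Ncoa2 does so on the array labelled knockout alone.

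Foxa1 was measured by 1 probe set, 1418496_at, built on a RefSeq transcript of the gene. It read 14289 on the array labelled knockout and 12289 on the wild-type array. The signal was slightly higher on the array labelled knockout, 1.16-fold, a log2 ratio of 0.22. That ratio is smaller than the spread between probe sets of the same gene, and it stood at the 77.2nd percentile of all ratios. The other forkhead pioneers of the family, Foxa2 and Foxa3, were below the floor on both arrays.

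Gata2 was measured by 2 probe sets, both with an ID ending in _a_at, a type that can read several transcripts of a gene. The brighter, 1450333_a_at, read 634 on the array labelled knockout and 875 on the wild-type array. This was 1.38-fold lower, a log2 ratio of -0.47 at the 12.8th percentile, larger in size than the spread of 0.357. The other, 1428816_a_at, read 104 on the array labelled knockout and 153 on the wild-type array, both under the floor, so no ratio is given for it. Its paralogue Gata3, a GATA factor of luminal epithelia, read 307 on the array labelled knockout and 206 on the wild-type array, a log2 ratio of 0.58, and the 3 probe sets of Gata6 were below the floor.

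The p160 coactivators, 3 related proteins that bind ligand-activated nuclear receptors, were measured by 9 probe sets, of which 8 entered. Of these 3 read higher and 5 lower on the array labelled knockout. Ncoa1, also known as SRC-1, read lower in both of its probe sets that entered. Ncoa2 and Ncoa3, known as TIF2 or GRIP1 and as SRC-3 or AIB1, each had probe sets of both signs.

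Ncoa1 had the lowest ratio among the members. Its brightest probe set, 1418594_a_at, read 1140 on the array labelled knockout and 1980 on the wild-type array. This was 1.74-fold lower, a log2 ratio of -0.80 at the 2.94th percentile of probe sets that entered. A second, 1434515_at, read 894 on the array labelled knockout and 1020 on the wild-type array, 1.14-fold lower with a log2 ratio of -0.19. The direction was shared, but the size was not, and the second ratio is within the spread between probe sets. The third, 1443397_at, read 49.4 on the array labelled knockout and 102 on the wild-type array, so both were under the floor. The brightest of the 3 is built on a RefSeq transcript of Ncoa1, and its ID ends in _a_at.

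The 2 Ncoa1 ratios lay 0.61 apart on the log2 scale. Among 2652 genes for which 2 probe sets were measured on both arrays, the median gap was 0.32, with quartiles of 0.15 and 0.55. The Ncoa1 probe sets thus differed from each other by more than the upper quartile of such genes, and Ncoa3, with a gap of 0.87, did so by a wider margin.

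Ncoa2 gave 4 ratios that split evenly in direction. Its brightest probe set, 1435233_at, read 2902 on the array labelled knockout and 2024 on the wild-type array, 1.43-fold higher with a log2 ratio of 0.52. The probe set 1435234_at, listed with the same source sequence, read 346 on the array labelled knockout and 303 on the wild-type array, a log2 ratio of 0.19. These 2 were both higher, and the second was within the spread between probe sets. By contrast 1446827_at read 198 on the array labelled knockout and 263 on the wild-type array, a log2 ratio of -0.41. The fourth, 1450458_at, read 129 on the array labelled knockout, a value under the floor, and 212 on the wild-type array, so it was at least 1.28-fold lower.

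The 3 Ncoa2 ratios measured on both arrays spanned 0.93 on the log2 scale. For 1116 genes with 3 such probe sets the median span was 0.54, with quartiles of 0.31 and 0.77, and 65.9% of these genes had ratios of both signs. The mixed directions within Ncoa2 were therefore common among such genes, and its span was above their upper quartile. Both lower ratios came from probe sets whose signals stayed under 300 on both arrays.

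Ncoa3 gave the highest ratio among the members and, in its other probe set, a ratio below 0. The brighter, 1448027_at, read 1190 on the array labelled knockout and 719 on the wild-type array, 1.66-fold higher. Its log2 ratio of 0.73 stood at the 97.6th percentile, the only member ratio outside the range from the 2.5th to the 97.5th percentile. The other, 1422737_at, read 435 on the array labelled knockout and 481 on the wild-type array, a log2 ratio of -0.14, within the spread between probe sets. This second probe set is the one built on a RefSeq transcript of Ncoa3, and the accession listed for the brighter one was not among the gene's RefSeq transcripts. Among genes with 2 probe sets above the floor, 45.9% had ratios of both signs.

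**Figure D2:**
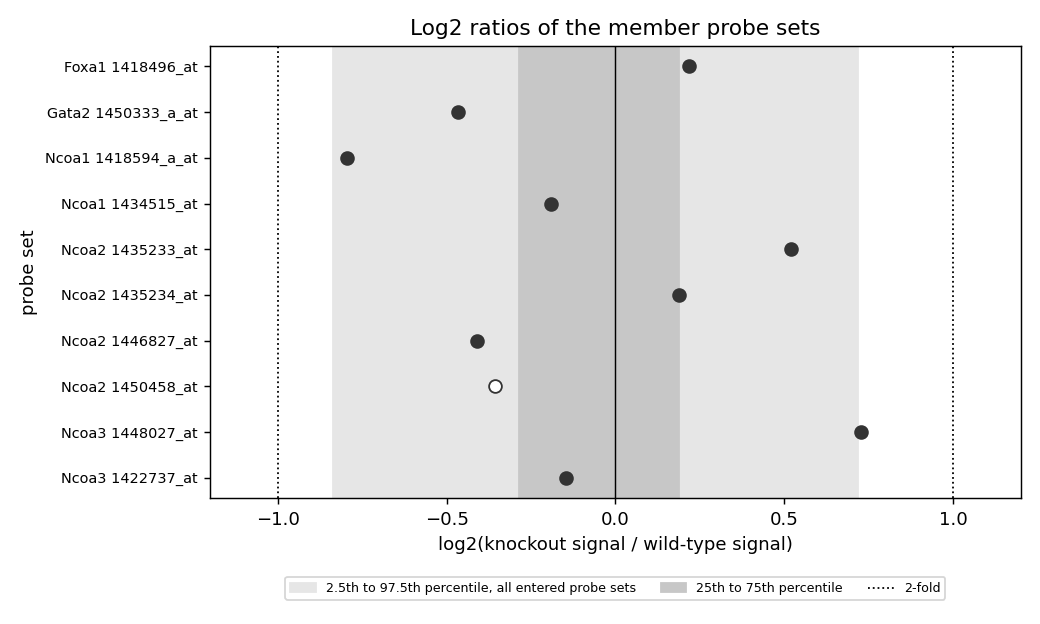
Log2 ratio of knockout over wild-type signal (horizontal axis) for the 10 member probe sets that entered, against the range from the 2.5th to the 97.5th percentile of all 24267 probe sets that entered (light band) and their quartiles (dark band). Filled circles are measured on both arrays, the open circle of Ncoa2 is a bound, and dotted lines mark 2-fold; 1448027_at of Ncoa3, at 0.73, is the only point outside the light band.

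Set beside each other by their brightest probe sets, the p160 genes ran in different directions. The log2 ratio of Ncoa3 was above that of Ncoa1 by 1.52 and that of Ncoa2 above Ncoa1 by 1.32. Over all combinations of probe sets measured on both arrays, the difference between Ncoa3 and Ncoa1 ranged from 0.046 to 1.52 and was above 0 in 4 of 4. Between Ncoa2 and Ncoa1 it ranged from -0.22 to 1.32 and was above 0 in 5 of 6. Ncoa3 minus Ncoa2 ranged from -0.66 to 1.14, above 0 in 4 of 6. These combinations share probe sets and arrays, so their counts carry no test.

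Choosing another probe set moved the gene values of the p160 members more than any rescaling did. With the median over probe sets in place of the brightest, the log2 ratio became -0.49 for Ncoa1, -0.084 for Ncoa2 and 0.29 for Ncoa3. With the least changed probe set, it became -0.19 for Ncoa1, 0.19 for Ncoa2 and -0.14 for Ncoa3. Taking the least changed probe set brings a gene's ratio towards no change by design. Foxa1 stayed between 0.18 and 0.27 and Gata2 between -0.47 and -0.42 over the alternatives that gave a value, each resting on 1 probe set above the floor in the reported setting.

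**Figure D3:**
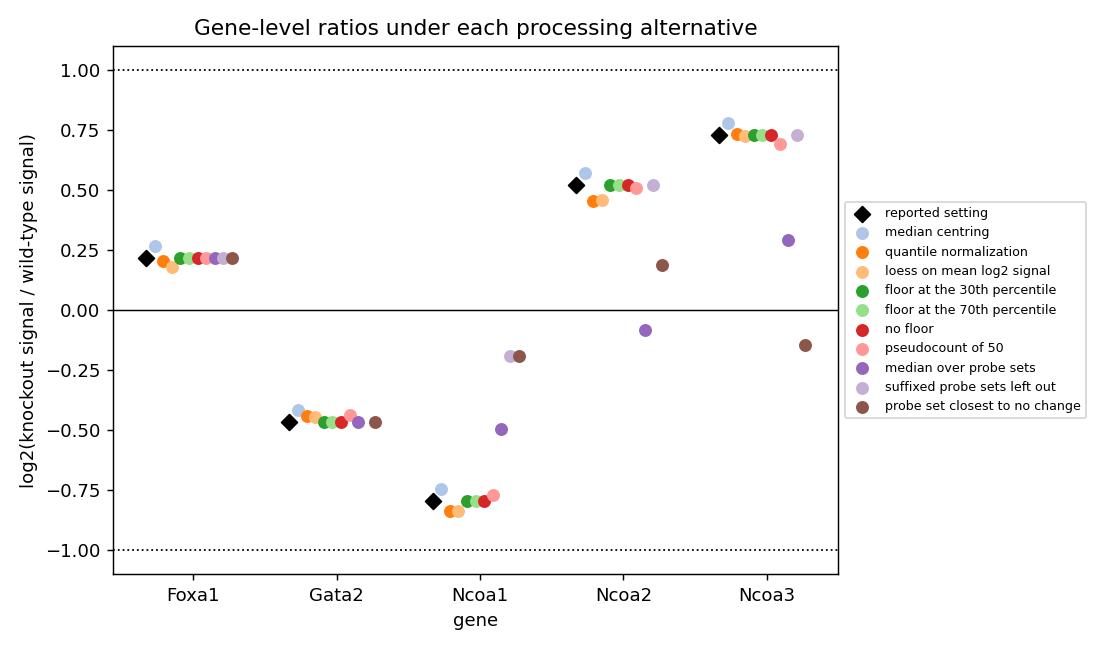
Log2 ratio of each of the 5 measured member genes (vertical axis) in the reported setting (diamonds) and under each processing alternative (circles), with dotted lines at 2-fold. Circles of Foxa1 and Gata2 stay close to the diamond, while those of Ncoa1, Ncoa2 and Ncoa3 spread when another probe set stands for the gene, Ncoa3 reaching -0.14.

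The receptor works with many other coregulators, and 110 genes of this kind were listed in 6 groups from textbook knowledge. Of them 101 entered, each by its brightest probe set. One differed at least 2-fold, where 1.47% of all 11671 genes that entered did. Their median log2 ratio was 0.081 with 59 higher and 42 lower, beside a median of -0.025 and 47.0% higher over all genes. Of the 65 listed genes with another probe set that entered, 40 had at least 1 of the opposite direction.

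The gene past 2-fold was Sfpq, an RNA-binding protein of paraspeckles. The brightest Sfpq probe set read 5329 on the array labelled knockout and 2339 on the wild-type array, 2.28-fold higher. The other 5 Sfpq probe sets ran from -0.68 to 0.68 in log2 ratio, with 1 of them lower. Nono, the usual partner of Sfpq, read 4907 on the array labelled knockout and 3349 on the wild-type array, a log2 ratio of 0.55, and its other 3 probe sets were all higher, from 0.049 to 0.34.

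The group of p160 partners, acetyltransferases and methyltransferases, which also held other coactivators and Mediator subunits, was evenly split, with 8 of 16 higher. Its median was 0.012, which became -0.13 with the median over each gene's probe sets. The arginine methyltransferase Carm1, which binds p160 proteins, had a log2 ratio of 0.37, and the coactivator Ncoa6 had 0.32. The acetyltransferase Crebbp had -0.40, with -0.91 and 0.096 in the 2 other probe sets that entered, and the Mediator subunit Med24 had -0.57. Corepressor and deacetylase genes had a median of 0.12 with 9 of 16 higher. That median became 0.00068 with the median over each gene's probe sets and -0.061 with the least changed ones. Among them Tbl1xr1, a core subunit of the NCoR complex, had 0.42, with 2 of the 3 other probe sets that entered opposite. The Sin3 scaffold Sin3b had 0.34 with 2 of 4 others opposite. The class IIa deacetylases Hdac5 and Hdac4 had -0.43 and -0.38.

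Other pioneer and partner factors had a median log2 ratio of 0.12, with 10 of 15 higher. That median became 0.093 with the median over each gene's probe sets and -0.062 with the least changed ones. The forkhead factor Foxo1 had 0.62, with 1 of the 2 other probe sets that entered opposite, and Gata3 had 0.58. The homeobox factor Hoxa13, close to the floor, had -0.70, and the ETS factor Spdef had -0.56. Steroid receptor chaperones had a median of -0.057 with 4 of 12 higher, from the immunophilin Fkbp4 at -0.40, with 1 of 2 other probe sets opposite, and the co-chaperone Dnajb1 at -0.30 to Bag1 at 0.32 and Hspa4 at 0.38. For Hspa4, 2 of the 3 other probe sets were opposite.

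Chromatin remodelling subunits had a median log2 ratio of 0.20, with 10 of 14 higher. That median was 0.21 with the median over each gene's probe sets. It was -0.019 with the least changed probe set of each gene, a choice that brings ratios towards no change by design. The ATPase Smarca2 read 1706 on the array labelled knockout and 1051 on the wild-type array, a log2 ratio of 0.70, and its other probe set had 0.46. Smarcc1, a scaffold subunit, had 0.66, and its 2 other probe sets that entered had -0.56 and 1.09. The lowest subunit was Smarcd1, named after its value was seen. Of its 2 probe sets only 1 entered, reading 146 on the array labelled knockout, under the floor, and 276 on the wild-type array. That probe set was at least 1.66-fold lower. Among subunits measured on both arrays the lowest were Arid1b at -0.069 and Smarcb1 at -0.042. The other Smarcb1 probe set that entered had 0.42. In the remaining group the actin cross-linker Flna had -0.73 and the chaperone-like Uxt had -0.61, each in its only probe set. Smooth muscle markers, whose median ratio between the same arrays was -0.54, were lower as well, and their part in the Flna ratio was not tested.

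**Figure D4:**
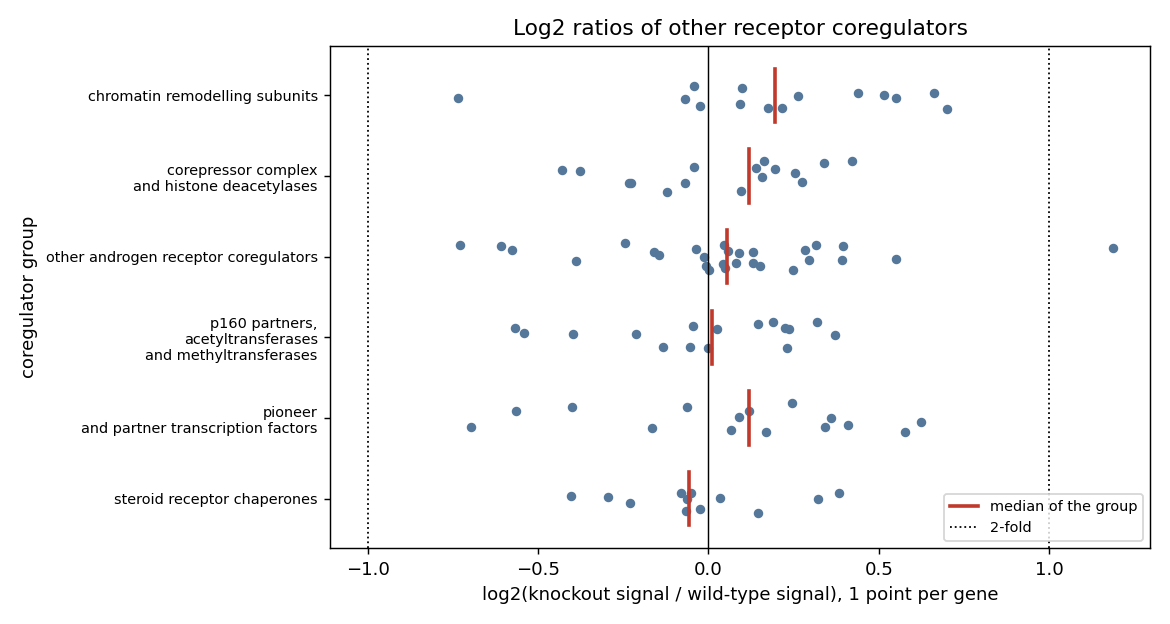
Log2 ratio of knockout over wild-type signal (horizontal axis) for 101 other coregulator genes in 6 groups, 1 point per gene at its brightest probe set, with the group medians as vertical bars and 2-fold as dotted lines. Medians run from -0.057 for the chaperones to 0.20 for the remodelling subunits, and Sfpq is the only point beyond 2-fold.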

How the data were processed

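The deposited values were linear probe-set intensities, called signals here, made with GCOS 1.4 per the submitters' processing notes, with settings not stated. With 2% of probe sets trimmed at each end, either array had a mean of 500.0, which shows 1 scaling factor per array. Detection calls were not used here. The floor was the 50th percentile of pooled non-control signals. Gene names came from the platform annotation, which listed 34945 with 1 symbol, 932 with several and 9160 with none. All 5 measured members matched a mouse gene table by Entrez ID and symbol.

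For gene values, the brightest probe set (mean log2 signal of both arrays) stood for the gene. No test was possible with 1 array in each group, and the number of arrays limits the precision. Members were given in full. In each coregulator group the 2 highest and 2 lowest genes measured on both arrays, and any past 2-fold, were named. Gata6, Foxa2, Foxa3, Smarcd1, Nfia, Foxp1, Zbtb16 and Hspa8 were named outside that rule, after their values were seen. Members, gene lists and markers were chosen with earlier results of these data known. Alternatives were median centring, quantile normalization, loess (span 0.4), other floors, a pseudocount of 50, other probe-set choices and thresholds of 1.5-fold and 3-fold. Python 3.11.15, pandas 2.3.3 and statsmodels 0.14.6 were used, and the calculations were tested on simulated data.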

Additional observations from a re-analysis of the deposited data

How the results depend on the processing

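Of 288 recomputed values, 267 stayed within the spread between probe sets or within 1.5 times the reported count, and 21 moved. That spread is larger than the median of any coregulator group, so such a median could change sign and still count as having stayed. The median of the remodelling subunits did so, going from 0.20 to -0.019 with the least changed probe sets, a choice that shrinks ratios by design. It kept its sign in 9 of 10 alternatives. Other floors also leave ratios of bright probe sets as they were, so the count of 267 is no measure of stability. The count of member probe sets past 2-fold, 0 as reported, was 1 with no floor, from the Ncoa1 probe set that was below the floor on both arrays, and 2 at a 1.5-fold threshold. Ncoa1 moved to -0.19 without probe sets ending in _s_at, _x_at or _a_at and also when the least changed probe set stood for the gene. Over the median of probe sets Ncoa2 moved to -0.084 and Ncoa3 to 0.29, and Ncoa3 moved to -0.14 with its least changed one. The median over member probe sets was 0.022 without suffixed probe sets and -0.30 with the floor at the 30th percentile or no floor, against -0.17 as reported. Coregulator genes past 2-fold, 1 as reported, numbered 0 with the median over probe sets, with the least changed probe set and at a 3-fold threshold, 2 without suffixed probe sets and 8 at 1.5-fold. The median over all 6 coregulator groups ranged from -0.00259 to 0.131.

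Over all probe sets, 161 were at least 2-fold higher and 280 lower on the array labelled knockout, against 199 and 225 after median centring, 214 and 206 after quantile normalization and 231 and 184 after loess. With the floor at the 30th percentile they numbered 559 and 1451, at the 70th 65 and 71, with no floor 3122 and 6033, and with the pseudocount 240 and 563. No value could be had for 3 Ncoa2 probe sets with the floor at the 70th percentile, or for Gata2 without suffixed probe sets. No paired analysis was possible because each group had 1 array. Signals near the floor cannot be told from background.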
